A study of Mus musculus with 8 samples.

Results

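Chemokines are small secreted proteins that guide the migration of leukocytes, and colony-stimulating factors are secreted proteins that support the survival, growth and maturation of myeloid cells. The genes described here were all rows whose symbol is Ccl or Cxcl followed by a number, together with Cx3cl1, Xcl1, Csf1, Csf2 and Csf3. They came to 46 of the 54838 genes in the files, with 42 distinct symbols, because Ccl19, Ccl21a, Ccl21b and Ccl27 each have a pair of gene identifiers. In the GRCm38 annotation 41 of them lie on chromosomes and 5 on unplaced scaffolds.

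Expression was measured by RNA-seq in cultured mouse hepatocellular carcinoma cells. The 3H3PM group had 7 libraries, 1 for each of the subclones numbered 1, 2, 3, 6, 7, 8 and 9, and carries a Trp53 knockout with ectopic MYC. The 3H3P group had 1 library and carries the Trp53 knockout alone. Both descend from 3H3, a line from a liver tumour of a C57BL/6 mouse that lacked MC4R and ate a high-fat diet, with an activating Hras mutation. The 3H3PM cells were grown as tumours in nude mice, which lack T cells, and the subclones were isolated from those tumours and cultured, whereas no such passage is described for 3H3P. MYC, growth in a mouse and subcloning therefore cannot be told apart in the comparison. Subclones 4 and 5 were not analysed here.

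Libraries held 12838521 to 17987068 expected counts. Trp53 transcript averaged 53.9 ± 7.45 CPM (counts scaled to equal library totals, with TMM factors) in the subclones (SD, n = 7) and was at 212 CPM in 3H3P, and mouse Myc averaged 6.54 ± 3.58 CPM in the subclones and was at 85.2 CPM in 3H3P. A frameshift need not remove the Trp53 transcript, and counts of the mouse gene need not include an introduced MYC, so neither checks the labels. The 8 hepatocyte markers together ran from 4.08 to 22.5 TPM (transcripts scaled by gene length and to a fixed library total) over the subclones, against 877 TPM in 3H3P. Trf, encoding transferrin, was at 4.02 to 16.5 TPM in the subclones and 725 TPM in 3H3P, Apob at 0 to 1.44 TPM in the subclones and 97.5 TPM in 3H3P, and Hnf4a at 0.03 to 3.80 TPM in the subclones and 38.0 TPM in 3H3P, and these 3 fell (edgeR adjusted p = 0.000143, 0.000968 and 0.00462). Alb reached at most 1.71 TPM in a subclone and was at 2.79 TPM in 3H3P. Markers of cell types that a tumour could carry over were also read. None of 7 lymphocyte markers had a count in any library. The pan-leukocyte gene Ptprc was at no more than 0.03 TPM in the subclones and at 0 in 3H3P. The macrophage gene Adgre1 was at no more than 0.13 TPM in the subclones and at 0 in 3H3P. Of the endothelial genes, Cdh5 was at 0 in every subclone and 0.02 TPM in 3H3P. Pecam1 was at 0.04 to 0.42 TPM in the subclones and 0 in 3H3P, and did not pass (edgeR adjusted p = 0.0707). Vwf was at 0.03 to 0.68 TPM in the subclones and 1.77 TPM in 3H3P. The 6 endothelial markers summed to 0.20 to 1.02 TPM in the subclones and 1.79 TPM in 3H3P. The 12 macrophage markers summed to 37.7 to 126 TPM in the subclones and 366 TPM in 3H3P, most of it Cd14 (25.4 to 108 TPM in the subclones, 358 TPM in 3H3P). The 6 neutrophil markers summed to 0.25 to 22.5 TPM in the subclones and 32.7 TPM in 3H3P. S100a8 was at 0 to 22.05 TPM in the subclones and 31.4 TPM in 3H3P. S100a9 was at 0 to 0.41 TPM in the subclones and 1.24 TPM in 3H3P, while Ly6g, Mpo and Csf3r were at 0 in every library. The 9 fibroblast markers summed to 30.6 to 139 TPM in the subclones, where Pdgfrb was at 26.1 TPM or more, and to 107 TPM in 3H3P, nearly all Dcn, while Thy1 and Lum were at 0 in every library.

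Chemokines act through G protein-coupled receptors on leukocytes. CXC chemokines with an ELR motif, such as the products of Cxcl1, Cxcl2, Cxcl3 and Cxcl5, attract neutrophils through CXCR2. CC chemokines such as the products of Ccl2 and Ccl7 draw monocytes through CCR2, and those of Cxcl9, Cxcl10 and Cxcl11 draw T cells and natural killer cells through CXCR3. CSF1, CSF2 and CSF3 act on macrophages, on macrophages and granulocytes, and on neutrophils. Many of these genes are known to be induced by NF-kappaB.

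The sequence just upstream of the neutrophil chemokine genes is shown because these genes varied together between subclones, as described further on. Of the 25 members that reached 1 TPM in any library, 17 were matched to upstream sequences of RefSeq (GRCm38.p6), and Cxcl5, Ccl2, Ccl5, Ccl7, Ccl27, Csf3, Cxcl16 and Cxcl17 were not matched. Each line below gives the 100 bases from 120 to 21 bases before the RefSeq start, 5′ to 3′ on the gene's strand, with letters that match the NF-kappaB consensus in capitals. The windows are chr5:90891125-90891224 (plus strand) for Cxcl1, chr5:90903779-90903878 (plus) for Cxcl2, chr5:90785981-90786080 (plus) for Cxcl3, chr5:92348910-92349009 (minus) for Cxcl10 and chr6:117168415-117168514 (plus) for Cxcl12.
Cxcl1: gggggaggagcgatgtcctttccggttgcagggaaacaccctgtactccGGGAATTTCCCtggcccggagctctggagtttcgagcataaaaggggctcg
Cxcl2: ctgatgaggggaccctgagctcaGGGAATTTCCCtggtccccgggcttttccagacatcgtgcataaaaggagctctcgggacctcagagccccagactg
Cxcl3: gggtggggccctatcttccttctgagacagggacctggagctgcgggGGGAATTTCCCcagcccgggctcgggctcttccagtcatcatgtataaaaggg
Cxcl10: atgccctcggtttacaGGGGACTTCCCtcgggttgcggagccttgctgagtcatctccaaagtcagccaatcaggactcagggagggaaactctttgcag
Cxcl12: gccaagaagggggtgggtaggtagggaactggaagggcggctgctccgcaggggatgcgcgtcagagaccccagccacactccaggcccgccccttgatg

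Cxcl1, Cxcl2 and Cxcl3 held the same run of 11 letters, GGGAATTTCCC, which begins 71, 97 and 73 bases before their RefSeq starts. GENCODE, used for the other positions, begins Cxcl2 at 90903871, before the end of its printed window (90903878). The distance for Cxcl2 is therefore not comparable with those for Cxcl1 and Cxcl3. The run was read from the Cxcl1 sequence itself (its match to the consensus and the next base), so its presence there was fixed beforehand. Searched on both strands, that run was present within 250 bases upstream in 14 of 32851 RefSeq promoters (0.0426%). Cxcl1, Cxcl2 and Cxcl3 were the only matched members to hold it. Because the run came from a member, this share is a description and no test. Cxcl10 held GGGGACTTCCC, beginning 104 bases before its start. The broader NF-kappaB consensus, which the run overlaps, matched upstream of 7 of the 17 members, namely Cxcl1, Cxcl2, Cxcl3, Cxcl10, Ccl9, Ccl20 and Csf1, and of 7.25% of all promoters. The interferon-stimulated response element was found, on either strand, upstream of Cxcl10 alone among the matched members and of 2.98% of all promoters. The AP-1 motif TGANTCA, on either strand, was found upstream of Ccl9, Ccl27a and Cxcl10, and of 6.75% of all promoters. No match to the NF-kappaB consensus lay within 250 bases upstream of Cxcl12. These are matches of letters, and binding was not measured.

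In all 8 libraries 16 members had 0 counts, which allows up to 3 counts per library; among them were Ccl4, Ccl22, Ccl24, Cxcl13, Cxcl14 and Xcl1. A further 5 (Ccl6, Ccl11, Ccl12, Cxcl9 and Cxcl11) had counts but stayed under 1 TPM. The annotation lists Cxcl11 as a polymorphic pseudogene. The 25 that reached 1 TPM in any library were Cxcl1, Cxcl2, Cxcl3, Cxcl5, Cxcl10, Cxcl12, Cxcl15, Cxcl16, Cxcl17, Ccl2, Ccl3, Ccl5, Ccl7, Ccl8, Ccl9, Ccl17, Ccl20, Ccl25, Ccl27, Ccl27a, Ccl28, Cx3cl1, Csf1, Csf2 and Csf3. Nearest to that threshold, Ccl28 peaked at 1.14 TPM just above it and Ccl6 at 0.93 TPM just below it. In every library 15 members were at 1 TPM or more. The level of Ccl27 rested on 1.53 expected counts in subclone 3, and that of Csf2 on at most 8 counts per library, so these were not tested.

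**Figure D1:**
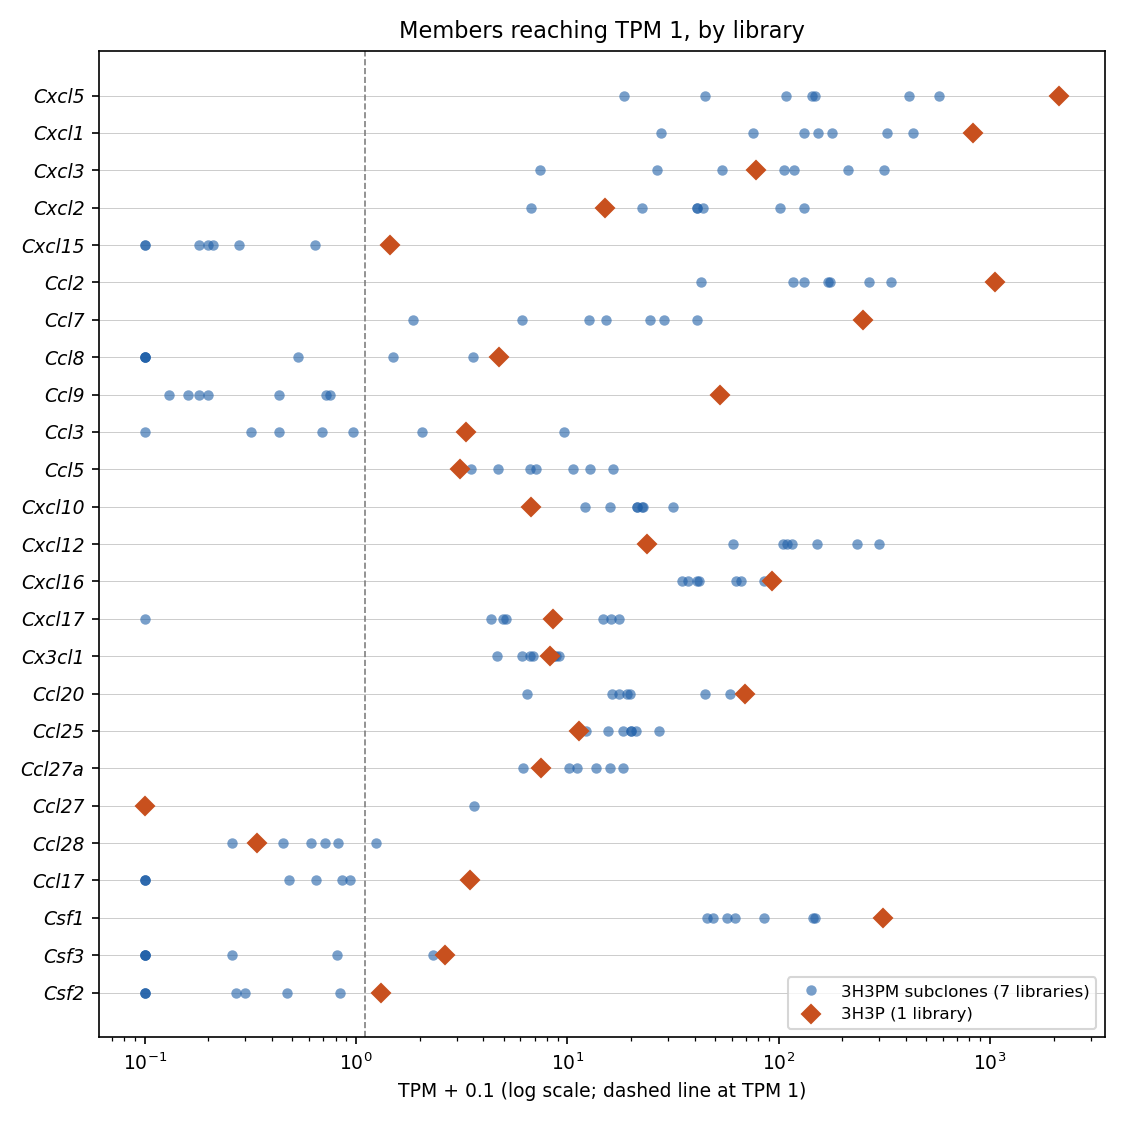
Level (TPM + 0.1, log axis) of the 25 members that reached 1 TPM, with a blue point for each of the 7 3H3PM subclones and an orange diamond for the 3H3P library. Cxcl5, Cxcl1, Ccl2, Ccl7, Ccl9 and Csf1 lie left of their diamond in every subclone, and Cxcl12 and Cxcl10 lie right of it.

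Summed over all members, chemokine and colony-stimulating factor transcripts made up 415 to 2117 TPM in the subclones, against 4974 TPM in 3H3P. The sum was lowest in subclone 2 and highest in subclone 8. The most abundant member was Cxcl5 in 3H3P, where it ranked 63rd of all genes by TPM, while in the subclones Cxcl5 ranked between 230th (subclone 8) and 6433rd (subclone 2). Of the 23 members tested, 1 was higher and 4 were lower in the subclones by edgeR's quasi-likelihood test (adjusted p under 0.05), which is 4.35% higher and 17.4% lower. Over all 14634 genes tested 7.33% were called higher, 11.8% lower and 19.1% in either direction. With at least 10 counts required in 7 libraries, 3 of 16 members were lower and 1 higher, where of all genes tested 10.4% were lower, 8.11% higher and 18.5% either. The filter kept Ccl8 and Ccl17 through the 3H3P library alone, so their values had to be lower in the subclones, and it kept Ccl28 through subclones alone. The median log2 fold change was -0.83 over the tested members and 0.03 over all tested genes. Every subclone lay below 3H3P for 12 of the 23 members (52.2%; 30.4% of all tested genes) and above it for 5 (21.7%; 27.1% of all tested genes) on the CPM scale, and over all tested genes the groups did not overlap for 57.4%.

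**Figure D2:**
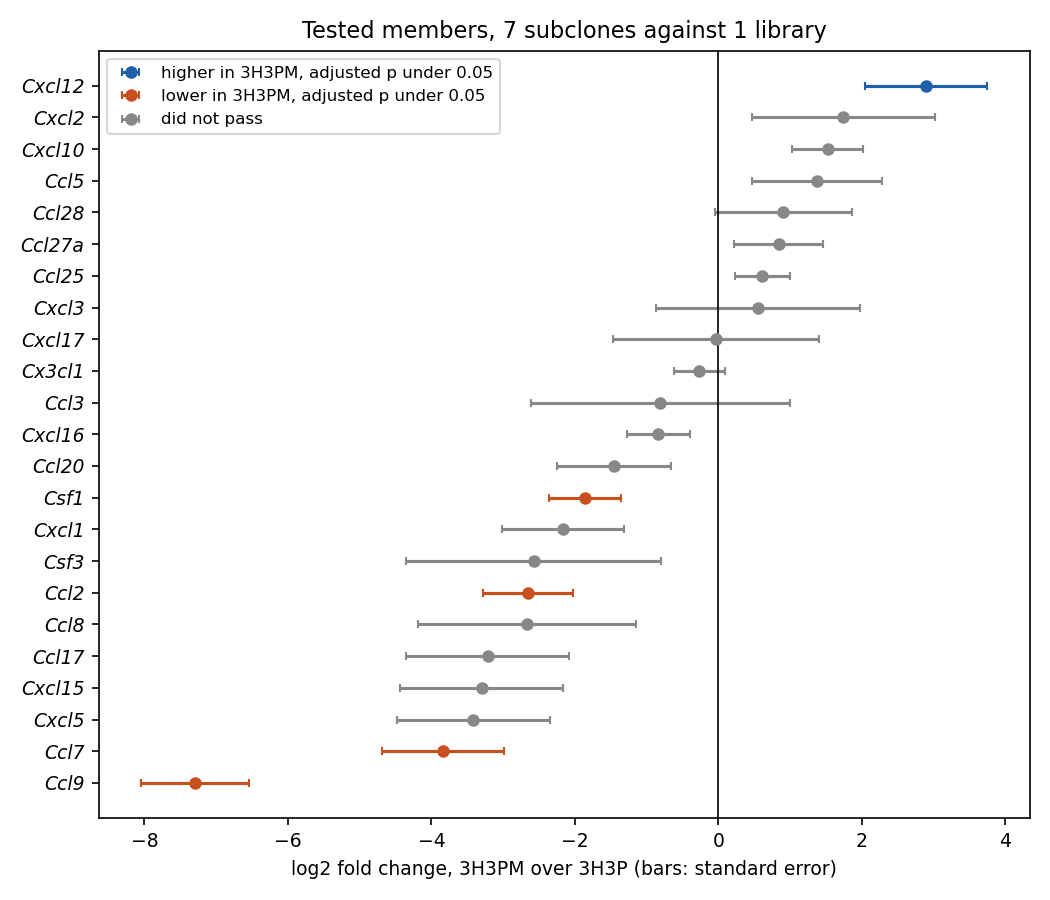
Log2 fold change of the 23 tested members, 3H3PM over 3H3P, with the standard error as bars and colour for the edgeR call. Cxcl12 is the member called higher, Csf1, Ccl2, Ccl7 and Ccl9 are those called lower, and Cxcl5 (-3.41) did not pass.

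Of the neutrophil chemokine genes, Cxcl5 and Cxcl1 lay below 3H3P in every subclone and Cxcl3 and Cxcl2 did not, and none of them passed the test. Cxcl5 ran from 18.4 TPM (subclone 2) through a median of 143 TPM to 572 TPM (subclone 8) in the subclones, and was at 2124 TPM in 3H3P. Cxcl1 ran from 27.8 through 154 to 432 TPM in the subclones, with subclones 2 and 8 again at the ends, and was at 831 TPM in 3H3P. Neither gene's subclones overlapped 3H3P. The log2 fold change of Cxcl5 was -3.41 (SE 1.07, edgeR adjusted p = 0.0534) and that of Cxcl1 was -2.17 (SE 0.85, adjusted p = 0.107). Cxcl5 passed the threshold without subclone 2 (adjusted p = 0.0416) or subclone 8 (0.0232), over a range of 0.0232 to 0.119 across the alternatives.

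Cxcl3 and Cxcl2 straddled the 3H3P level. Cxcl3 ran from 7.33 TPM (subclone 2) through 106 to 316 TPM (subclone 8) in the subclones, and was at 77.8 TPM in 3H3P, with 4 subclones above and 3 below. Cxcl2 ran from 6.66 TPM (subclone 2) through 40.9 to 132 TPM (subclone 8) in the subclones, against 15.0 TPM in 3H3P, and subclone 2 was the exception below it. Their log2 fold changes were 0.56 (SE 1.42, adjusted p = 0.816) and 1.75 (SE 1.28, adjusted p = 0.371). Direction for Cxcl3 turned negative by limma-voom (-0.23) and on log2(TPM + 0.1) (-0.14) and log2(TPM + 1) (-0.11). Cxcl15, the remaining ELR chemokine gene within the naming rule, had 0 to 9 counts in each subclone and 30 counts in 3H3P (adjusted p = 0.0725). Cxcl15 passed by limma-voom (0.0130), on log2(TPM + 1) (0.0118) and without subclone 7 (0.0261), over a range of 0.0118 to 0.203.

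The 4 abundant CXCR2 ligand genes together came to 60.1 TPM in subclone 2, 450 TPM at the median and 1452 TPM in subclone 8, a 24.1-fold range between subclones, and to 3048 TPM in 3H3P. Their make-up also differed. Cxcl5 supplied 26.3% to 39.4% of the sum in the subclones and 69.7% in 3H3P. Cxcl1 supplied 29.8% to 46.2% in the subclones and 27.3% in 3H3P. Cxcl3 supplied 12.2% to 24.5% in the subclones and 2.55% in 3H3P, and Cxcl2 supplied 8.50% to 13.3% in the subclones and 0.493% in 3H3P. For each of the 4 shares the subclones did not overlap 3H3P. The shares are parts of the same sum, so where that of Cxcl5 is lower the rest must be higher. The 4 are therefore not separate observations. For single genes on the CPM scale, the groups did not overlap for 57.4% of all tested genes. With 1 library against 7, an exact permutation test cannot go below p = 0.125, so these shares are given without a test.

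**Figure D3:**
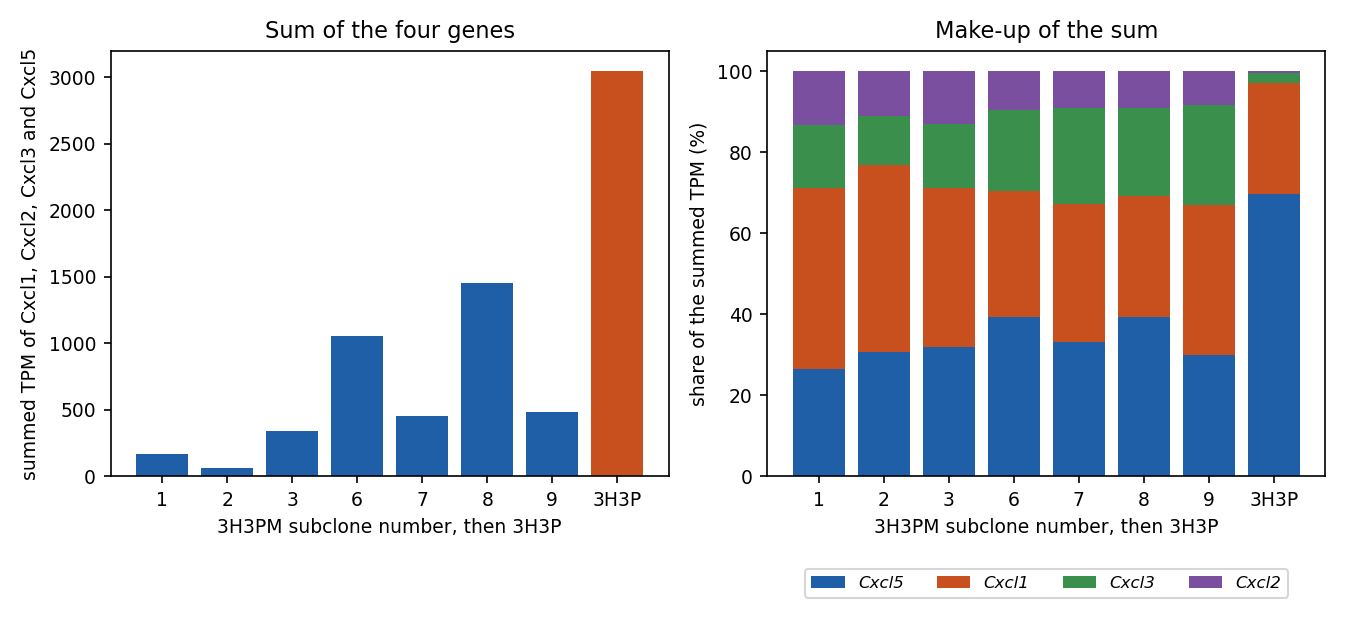
Left, summed TPM of Cxcl1, Cxcl2, Cxcl3 and Cxcl5 in each of the 7 3H3PM subclones (blue) and in 3H3P (orange); right, the percentage of that sum from each gene. Cxcl5 makes up 69.7% of the 3H3P bar and at most 39.4% of a subclone's bar.

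These genes varied together from subclone to subclone. On log2 CPM over the 7 subclones, Cxcl1 and Cxcl2 had Pearson's r = 0.995 and Spearman's rho = 1 (exact permutation p = 0.000198 and 0.000397, adjusted p = 0.00437 and 0.00873 over the 66 pairs of 12 members compared). Cxcl1 and Cxcl3 had r = 0.992 and rho = 1, with the same permutation p-values, and Cxcl1 and Cxcl5 had r = 0.989 and rho = 0.964 (exact permutation p = 0.000397 and 0.00278, adjusted p = 0.00437 and 0.0306). The smallest p the permutations can give is 0.000198. All 6 pairs among Cxcl1, Cxcl2, Cxcl3 and Cxcl5 passed, with r from 0.981 to 0.995, and r stayed between 0.926 and 0.991 without the 2 subclones farthest from the median. Cxcl5, Cxcl3, Cxcl15, Cxcl1 and Cxcl2 lie within 147 kb of chromosome 5 (90759360 to 90905938), and Cxcl1, Cxcl2 and Cxcl3 share the run of letters shown above. Cxcl5 had no matched upstream sequence. The part of position or of the run in the shared variation was not tested. Subclones 8 and 6, with the highest sums of these genes (1452 and 1052 TPM), also had the highest levels of Il11, the cytokine named in the study's title, at 25.7 and 12.5 TPM, whereas the other subclones had 0.69 to 3.04 TPM and 3H3P 0.15 TPM. Among the macrophage and fibroblast markers, Cd68 (10.7 and 8.02 TPM in subclones 8 and 6, 2.36 to 3.23 TPM in the other subclones, 3.93 TPM in 3H3P) and Pdgfra (92.8 and 54.1 TPM in subclones 8 and 6, at most 5.61 TPM in the others, 0.18 TPM in 3H3P) were highest in the same subclones. Cd14 was at 108 and 68.2 TPM in subclones 8 and 6, 25.4 to 47.9 TPM in the other subclones and 358 TPM in 3H3P. Among the subclones Cd14 too was highest in subclones 8 and 6. Other markers of these lists were not: Adgre1, C1qa, C1qb and C1qc were at 0 in subclones 8 and 6, and Lyz2 (0.10 and 1.21 TPM in subclones 8 and 6) was highest in subclone 2 at 5.83 TPM. Acta2 (0.61 and 3.38 TPM in subclones 8 and 6) was highest in subclone 7 at 13.1 TPM, and Col1a1 (0.28 and 1.54 TPM) in subclone 9 at 1.61 TPM. The part of these markers in the chemokine levels was not tested, and in cultures a larger number of producing cells and more RNA per cell cannot be told apart.

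**Figure D4:**
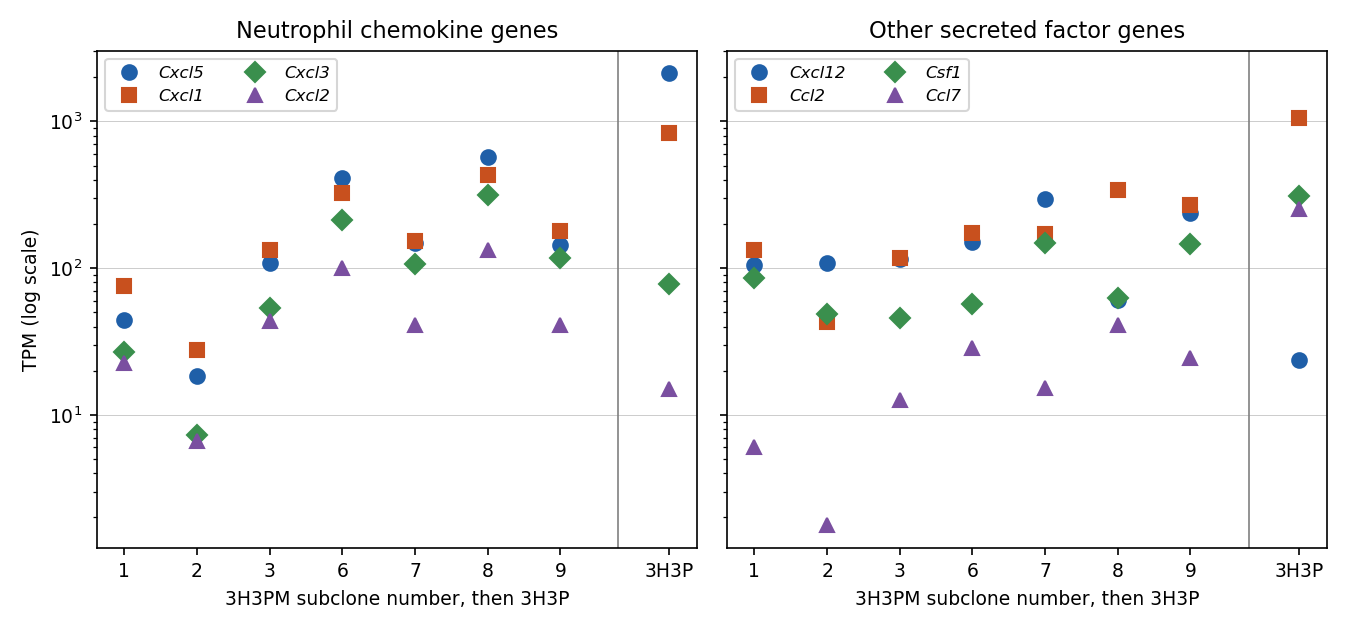
TPM (log axis) of 8 members in each of the 7 3H3PM subclones and, right of the line, in 3H3P. Cxcl5, Cxcl1, Cxcl3 and Cxcl2 are lowest in subclone 2 and highest in subclones 8 and 6, whereas Cxcl12 is lowest in subclone 8.

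The monocyte chemokine genes Ccl2 and Ccl7 were lower in the subclones. Ccl2 ran from 42.9 TPM (subclone 2) through a median of 172 TPM to 342 TPM (subclone 8) in the subclones, and was at 1060 TPM in 3H3P. Ccl7, whose product shares the receptor CCR2, ran from 1.77 TPM (subclone 2) through 15.2 to 41.2 TPM (subclone 8) in the subclones, and was at 251 TPM in 3H3P. Both were below 3H3P in 7 of 7 subclones. The log2 fold change was -2.65 for Ccl2 (SE 0.62, edgeR adjusted p = 0.0188) and -3.84 for Ccl7 (SE 0.85, adjusted p = 0.0149). Neither was called on log2(TPM + 0.1) or log2(TPM + 1), with adjusted p on the first of 0.0691 for Ccl2 (0.00263 to 0.0691 over the alternatives) and 0.0774 for Ccl7 (0.00240 to 0.0774). The ratio of Ccl2 to Ccl7 TPM was 6.11 to 24.3 in the subclones and 4.22 in 3H3P.

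Ccl2 tracked the neutrophil chemokine genes less tightly. It had r = 0.911 with Cxcl1 over the 7 subclones (rho = 0.929, exact permutation p = 0.00615 and 0.00675, adjusted p = 0.0451 and 0.0495). Without the 2 subclones farthest from the median of Ccl2, r was 0.511, so r depended on those. With Cxcl3, r was 0.919 (exact permutation p = 0.00417, adjusted p = 0.0344) and 0.626 without the 2 farthest. With Cxcl2 and Cxcl5, r was 0.878 and 0.859 and did not pass (exact permutation, adjusted p = 0.0762 for each). Ccl2 lies at 82035571 to 82037453 on chromosome 11, in an 81.2 kb stretch with Ccl7, Ccl11, Ccl12 and Ccl8. The neighbours differed in level: Ccl11 had 1 count in 3H3P and 0 in the subclones, and Ccl12 had 1 count in subclone 2 and 0 elsewhere. Ccl8, another monocyte attractant, was at 3.48 TPM in subclone 9, 1.40 in subclone 3, 0.43 in subclone 7 and 0 in the other subclones, and at 4.66 TPM in 3H3P. Ccl8 did not pass (adjusted p = 0.249), except by limma-voom (0.0427; 0.0427 to 0.564 over the alternatives).

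Of the inflammatory CC chemokine genes Ccl3, Ccl4, Ccl5, Ccl6 and Ccl9, Ccl9 showed the largest change of any tested member. In mice its product attracts myeloid cells that carry CCR1. Ccl9 was at 0.03 to 0.65 TPM in the subclones (median 0.10 TPM, 38 counts over 7 libraries), and at 52.9 TPM (952 counts) in 3H3P. Its log2 fold change was -7.29 (SE 0.75, edgeR adjusted p = 0.000479), and its adjusted p was at most 0.00281 over the alternatives in which it was tested. The neighbouring Ccl6 had 0 to 4 counts in each subclone and 7 counts in 3H3P, and was not tested.

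Ccl5 and Ccl3 encode attractants of T cells and monocytes. Ccl5 was at 3.42 TPM (subclone 7) to 16.3 TPM (subclone 9) in the subclones, with a median of 7.00 TPM, and at 2.99 TPM (11 counts) in 3H3P. All 7 subclones were above 3H3P, but the lowest was close to it, and the log2 fold change of 1.38 (SE 0.90) did not pass (adjusted p = 0.316). Ccl3 was at 9.50 TPM in subclone 8, 1.95 TPM in subclone 6 and 0 to 0.87 TPM in the other subclones, and at 3.21 TPM in 3H3P (adjusted p = 0.788). Ccl4, next to Ccl3 on chromosome 11, had no count in any library.

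Among ligands of CXCR3, Cxcl10 was the one that reached 1 TPM. It ran from 12.0 TPM (subclone 8) through 21.4 to 31.4 TPM (subclone 1) in the subclones, and was at 6.67 TPM in 3H3P, so all 7 subclones lay above it. Its log2 fold change of 1.53 (SE 0.50) did not pass by edgeR (adjusted p = 0.0598). Cxcl10 passed by DESeq2 (0.0122), on log2(TPM + 0.1) (0.0404) and log2(TPM + 1) (0.0423), and without subclone 8 (0.0284), over a range of 0.0122 to 0.0979. Subclone 8 was lowest for Cxcl10 and highest for Cxcl1, Cxcl2, Cxcl3 and Cxcl5. Cxcl9, whose product shares the receptor, and Cxcl11, listed as a polymorphic pseudogene, had 3 and 7 counts over all subclones and 0 in 3H3P.

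Cxcl12 was the member higher in the subclones. It encodes a chemokine that retains progenitor cells and lymphocytes through CXCR4 and is cleared by the atypical receptor ACKR3. Cxcl12 ran from 60.6 TPM (subclone 8) through a median of 115 TPM to 298 TPM (subclone 7) in the subclones, and was at 23.6 TPM in 3H3P. Its log2 fold change was 2.90 (SE 0.85, edgeR adjusted p = 0.0433), higher in 7 of 7 subclones. The call was lost without subclone 2 (adjusted p = 0.0553), 3 (0.0631), 6 (0.0654) or 9 (0.0567), over a range of 0.000163 to 0.0654. Cxcr4 had 0 counts in every library. Ackr3 was at 70.4 to 113 TPM in the subclones (median 96.5 TPM) and 7.14 TPM in 3H3P. It was higher by 3.57 on the log2 scale, with SE 0.29 and an adjusted p of 0.00015, in 7 of 7 subclones and in every alternative.

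The other CXC genes and the CX3C gene showed no call. Cxcl16, which encodes a transmembrane chemokine and ligand of CXCR6, ran from 34.9 TPM (subclone 7) through 42.1 to 84.9 TPM (subclone 1) in the subclones, all below the 93.5 TPM of 3H3P (log2 fold change -0.83, SE 0.44, adjusted p = 0.216). Its counts were fractional in every library, so some of its reads were divided with another gene. Cx3cl1, encoding fractalkine, spanned 4.57 to 9.05 TPM in the subclones with 8.18 TPM in 3H3P (adjusted p = 0.637). Cxcl17, a mucosal chemokine gene, was at 0 in subclone 8, at 4.24 to 5.02 TPM in subclones 2, 3 and 6 and at 14.7 to 17.5 TPM in subclones 1, 7 and 9, against 8.45 TPM in 3H3P (log2 fold change -0.03, adjusted p = 0.99).

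Ccl20, Ccl25 and Ccl27a, whose products draw lymphocytes to epithelia through CCR6, CCR9 and CCR10, were at moderate levels throughout. Ccl20 ran from 6.33 TPM (subclone 7) through 19.2 to 59.1 TPM (subclone 1) in the subclones, all below the 69.1 TPM of 3H3P (adjusted p = 0.23). Ccl25 ran from 12.2 TPM (subclone 8) through 19.9 to 27.2 TPM (subclone 1) in the subclones, all above the 11.3 TPM of 3H3P (adjusted p = 0.291). Ccl27a, which has near-identical copies, was at 6.09 to 18.3 TPM in the subclones and 7.37 TPM in 3H3P (adjusted p = 0.37), and on the CPM scale every subclone was above 3H3P. Ccl25 and Cxcl16 were both highest in subclone 1 and had r = 0.930 over the 7 subclones (rho = 0.857, exact permutation p = 0.00377 and 0.0238, adjusted p = 0.0344 and 0.121; r = 0.910 without the 2 farthest). At low levels, Ccl28 was at 0.16 to 1.14 TPM in the subclones and 0.24 TPM in 3H3P (adjusted p = 0.538). Ccl17, a ligand of CCR4, was at 0 to 0.84 TPM in the subclones and 3.38 TPM in 3H3P (adjusted p = 0.0781). Ccl17 passed by limma-voom (0.0271) and on log2(TPM + 1) (0.0170), over a range of 0.0170 to 0.138.

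Of the colony-stimulating factor genes, Csf1 was by far the most abundant. It encodes the main growth factor of macrophages. Csf1 was at 45.6 TPM (subclone 3) to 148 TPM (subclone 7) in the subclones, with a median of 62.3 TPM, and at 312 TPM in 3H3P. Subclones 7 and 9 (146 TPM) stood above the other 5, which reached at most 85.0 TPM. Its log2 fold change was -1.86 (SE 0.51, edgeR adjusted p = 0.0329), lower in 7 of 7 subclones. The call was lost without subclone 6 (adjusted p = 0.0552) and on log2(TPM + 0.1) (0.0726) or log2(TPM + 1) (0.0688), over a range of 0.00979 to 0.0726. Il34, whose product also binds the CSF1 receptor, was at 0.50 to 3.73 TPM in the subclones and 0.99 TPM in 3H3P (adjusted p = 0.569).

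Csf3 and Csf2 were scarce. Csf3, encoding the granulocyte factor G-CSF, had 25 counts (2.22 TPM) in subclone 8, 9 counts (0.71 TPM) in subclone 6, 2 counts in subclone 2 and 0 in the other 4 subclones, and 35 counts (2.53 TPM) in 3H3P. The test did not call Csf3 (log2 fold change -2.57, SE 1.77, adjusted p = 0.341), and limma-voom did (0.0277; 0.0277 to 0.59 over the alternatives). Csf2, encoding GM-CSF, had 0 to 4 counts in each subclone and 8 counts in 3H3P.

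The spread between subclones was wide for many members. Among the 17 members with a mean of at least 1 CPM in the subclones, 7 (41.2%) had an SD of log2 CPM above 1, where 6.7% of all genes at that level did. These were Cxcl17 (SD 1.94), Cxcl3 (1.81), Cxcl5 (1.71), Ccl7 (1.47), Cxcl2 (1.37), Cxcl1 (1.29) and Ccl20 (1.03). Counting error adds to the SD of the scarcer ones. Cxcl1, Cxcl2, Cxcl3 and Cxcl5 varied together, as described above, so they are not separate cases of wide spread. The lowest SDs among the 17 members were those of Ccl25 (0.33), Cx3cl1 (0.35) and Cxcl10 (0.43). The median SD was 0.78 over the 17 members and 0.28 over all genes at that level. Cxcl3 varied 43.1-fold between subclones 8 and 2 in TPM, while Cx3cl1 varied 1.98-fold between its highest and lowest subclone.

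**Figure D5:**
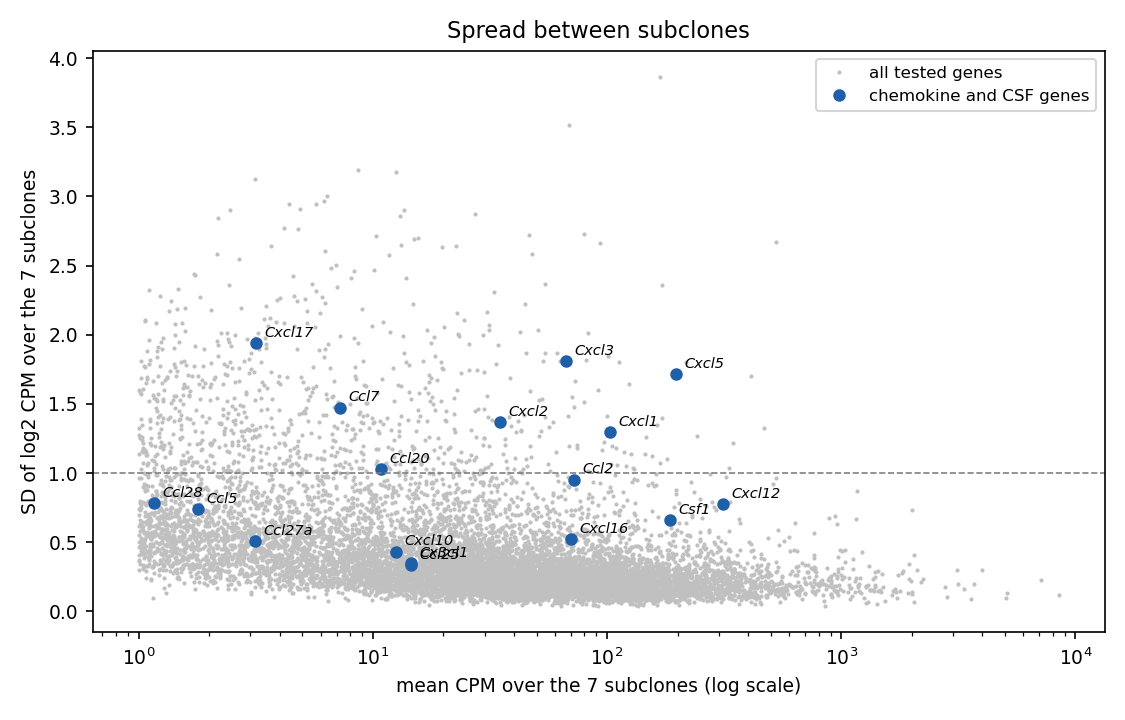
SD of log2 CPM over the 7 3H3PM subclones against mean CPM (log axis) for all genes at 1 CPM or more (grey) and for the 17 members at that level (blue). Cxcl3, Cxcl5, Cxcl2 and Cxcl1 stand above the dashed line at an SD of 1, and Ccl25 (0.33) and Cx3cl1 (0.35) are the lowest of the 17 members.

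Of 23 chemokine and colony-stimulating factor receptor genes, 10 had no count in any library, including Cxcr2, Ccr1, Ccr2 and Cxcr3, and 3 were tested. Csf2rb, the shared beta chain of the GM-CSF receptor, had 1 count over all subclones and 31 counts in 3H3P. It passed the filter through the 3H3P library alone, so its value had to be lower in the subclones, and its call by edgeR (adjusted p = 0.00148; DESeq2 0.0927) is no evidence of direction. Csf1r was at 1.20 to 7.46 TPM in the subclones and 3.52 TPM in 3H3P (adjusted p = 0.96). Ccr10, the receptor gene for the products of Ccl27a and Ccl28, was at 0.25 to 2.13 TPM in the subclones and 0.46 TPM in 3H3P (adjusted p = 0.36). Of the 4 atypical receptor genes, Ackr3 and Ackr2 were tested, and Ackr3 alone passed. Among 5 related ligand genes outside the naming rule, Ppbp, which lies in the same chemokine family as Cxcl5, was at 0 to 1.61 TPM in the subclones and 8.53 TPM in 3H3P (adjusted p = 0.0428). The call of Ppbp was lost by DESeq2, on log2(TPM + 0.1) and without subclone 1 (adjusted p = 0.0514), 2 (0.0621) or 6 (0.0709), over a range of 0.00911 to 0.105. Mif, which encodes a cytokine with chemokine-like action, was at 1342 to 1975 TPM in the subclones and 962 TPM in 3H3P and did not pass (adjusted p = 0.0569), but passed by DESeq2 (0.0202), with library size alone (0.0358), by limma-voom (0.0491), on log2(TPM + 0.1) (0.0300) and log2(TPM + 1) (0.0275), and without subclone 1 (0.0261), over a range of 0.0202 to 0.093.

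Listed genes of the NF-kappaB and interferon pathways were lower or did not pass, and none was called higher. Of 14 NF-kappaB subunit and regulator genes, 6 fell, 0 rose and 8 did not pass, where 11.8% of all tested genes were called lower and 7.33% higher. Tnfaip3, Nfkbie, Nfkbiz and Bcl3, which encode NF-kappaB-induced modulators of the pathway, fell with log2 fold changes of -1.90, -1.64, -1.34 and -1.49 (edgeR adjusted p = 0.00721, 0.00356, 0.00922 and 0.00178), each called in every alternative. The calls of Relb (adjusted p = 0.0373) and Nfkbib (0.0423) were lost in several alternatives, with up to 0.0634 and 0.0729. Relb was lost without subclone 2 (0.0527), 3 (0.0580), 6 (0.0634), 7 (0.0577) or 9 (0.0614), and Nfkbib without subclone 1 (0.0549), 2 (0.0584), 3 (0.0729), 7 (0.0511) or 9 (0.0671). Rela, the main transactivating subunit, was at 52.5 to 104 TPM in the subclones and 91.9 TPM in 3H3P (adjusted p = 0.261), and passed without subclone 1 (0.0480; 0.0480 to 0.377 over the alternatives). Nfkb2 (adjusted p = 0.0544) passed by DESeq2 (0.0333), with the stricter filter (0.0475) and without subclone 8 (0.0294), over a range of 0.0294 to 0.0887. Nfkbie was at 9.34 to 17.8 TPM in the subclones and 38.3 TPM in 3H3P.

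Of 13 interferon signalling genes, 5 fell, 0 rose and 8 did not pass, where 11.8% of all tested genes were called lower and 7.33% higher. Cxcl10, an interferon-responsive gene, was above 3H3P in every subclone. The receptor genes Ifngr2 and Ifngr1 had log2 fold changes of -2.34 and -1.53 (edgeR adjusted p = 0.000943 and 0.00658). Jak2, with -1.70 (adjusted p = 0.0281), was lost on log2(TPM + 0.1) (0.0612) and log2(TPM + 1) (0.0560), over a range of 0.00695 to 0.0612. Ifnar2, at an adjusted p of 0.0494, was lost in most alternatives, among them without subclone 1 (0.0667), 2 (0.0648), 3 (0.0819), 6 (0.0703), 7 (0.0739) or 9 (0.0655), over a range of 0.00559 to 0.164.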

How the data were processed

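Total RNA of cultured cells was made into strand-specific libraries (NEBNext Ultra Directional), per the labels' protocols. The submitters' processing notes name FastQC, STAR, RSEM, DESeq2 and the GRCm38 (mm10) build; no source used here gives versions or options. Levels are the TPM deposited by the authors. Tests used the expected count deposited by the authors, an RSEM estimate that splits multi-matching reads, so near-identical copies (Ccl19, Ccl21a, Ccl21b, Ccl27, Ccl27a, Ccl27b) are uncertain. The authors' deposited FPKM values were left out. Library totals ran from 12838521 to 17987068 expected counts.

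After rounding, all 8 libraries were fitted with the quasi-likelihood model of edgeR 4.0.16 in R 4.3.3 (filterByExpr by group, TMM scaling), with Benjamini-Hochberg adjustment over all 14634 genes tested; a gene with an adjusted p under 0.05 was called. The spread came from the 7 subclones (6 residual degrees of freedom) and the lone 3H3P library was assumed to vary like them. Each p-value sets the distance of the lone 3H3P library from the subclones against the spread between these isolates, which may be technical in part. Variation between 3H3P cultures was not measured. SE was taken as the absolute log2 fold change over the root of the F statistic. DESeq2 1.42.0 and limma 3.58.1 (voom, and trend on log2(TPM + 0.1) and log2(TPM + 1)) served as alternatives, beside other scalings, filters and the omission of each subclone. Spread between subclones is given as the SD of their log2 CPM (prior count 2). Members with a mean of 10 CPM or more were correlated in pairs over the subclones with two-sided exact permutation tests. Positions come from GENCODE vM21 and upstream sequences from RefSeq (GRCm38.p6). Every member that reached 1 TPM was named. Members and lists were chosen with earlier results of these data known. 1 gene of the interferon signalling list is counted there and is not reported by name.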

Additional observations from a re-analysis of the deposited data

Results flagged for a closer look

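In 5 of the 25 members that reached 1 TPM, 1 subclone stood far from the other 6 in TPM, as judged by its gap to the nearest subclone over the whole range of the subclones (critical value 0.568 for 7 samples). Chance gives about 1 in 20 such groups where values follow a normal distribution. Several of these members were at 0 TPM in some subclones, so that share need not hold here. The gap was 0.795 of the range for Ccl3 (subclone 8, 9.50 TPM, next highest 1.95 TPM) and 0.68 for Csf3 (subclone 8, 2.22 TPM, next highest 0.71 TPM). It was 0.598 for Ccl8 (subclone 9, 3.48 TPM, next highest 1.40 TPM) and 0.667 for Cxcl15 (subclone 7, 0.54 TPM), both on fewer than 10 counts in that library. For Ccl27 it was 1, since subclone 3 had 1.53 expected counts and the other subclones 0.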

How the results depend on the processing

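No paired analysis was possible because 3H3P has 1 library. The number of members called lower was 4 and ran from 3 to 5 without any one subclone, but was 8 by limma-voom and 1 on log2(TPM + 0.1). The number called higher was 1 and ran from 0 to 2 without any one subclone, and was 2 with DESeq2 and on both log2(TPM + 0.1) and log2(TPM + 1). With at least 10 counts required in 7 libraries, 3 of 16 members were lower (10.4% of all genes tested) and 1 higher (8.11%). Genes called over the whole table numbered 2799, and 1991 to 2985 without any one subclone. Cxcl17, at a log2 fold change of -0.03, turned positive with library size alone (0.054), without a filter (0.002) and in 4 omissions of a subclone (all omissions -0.272 to 0.204). Cxcl3, at 0.56, turned negative by limma-voom (-0.23), on log2(TPM + 0.1) (-0.14) and on log2(TPM + 1) (-0.11). The cause was not tested. Among single members 301 of the comparisons with an alternative kept direction and call, 13 gained a call, 11 lost one and 9 turned direction. The lone 3H3P library cannot be left out, and low counts limit Csf2, Csf3, Ccl8, Ccl17 and Cxcl15.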
